A study of Papio anubis with 588 samples.

Results

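The transcription factors of the NF-kB family, their inhibitors and TNF were followed in liver, muscle and adipose tissue of the baboon Papio anubis, a monkey of the Old World. The members were taken by gene symbol: the factors NFKB1, NFKB2, RELA, RELB and REL, the inhibitors and feedback genes NFKBIA, NFKBIE, TNFAIP3 and BIRC3, and the ligand TNF. Of these 10 genes, 9 have a row under their symbol among the 34178 genes counted, and TNF was not analysed here. REL was too low for a test in any tissue, so 8 members were tested in each tissue. Biopsies came from 99 captive animals, first while they ate food with little cholesterol and fat (LCLF, labelled 0yr) and later while they ate food with much of both (HCHF, labelled 2yr). All animals changed diet, so the diet, the 2 years of age and anything else that differed between the 2 samplings cannot be told apart.

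NF-kB factors act as dimers that wait in the cytoplasm until a signal frees them. In the canonical branch, receptors for TNF, interleukin-1 and bacterial products activate a kinase complex that leads to destruction of the inhibitor encoded by NFKBIA, and dimers of the NFKB1 product with RELA or REL enter the nucleus. In the noncanonical branch, receptors such as CD40 and the lymphotoxin receptor stabilise the kinase MAP3K14, and the NFKB2 precursor is processed to a subunit that pairs with RELB. NFKB2, RELB, NFKBIA, NFKBIE, TNFAIP3 and BIRC3 are themselves known NF-kB target genes, so their transcripts serve both as parts of the pathway and as readouts of it. In liver the pathway is known from macrophages, endothelium and hepatocytes, and in adipose tissue from immune cells and adipocytes.

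Whole-number read counts per gene were available for 182 liver libraries (95 LCLF, 87 HCHF), 194 muscle libraries (96 LCLF, 98 HCHF) and 194 adipose libraries (99 LCLF, 95 HCHF). Both times were present for 84 animals in liver and 95 in either of the other tissues. Total counts ran from 6.51 to 38.46 M per library, with a median of 19.5 M. The labels describe a library batch of 16 animals with an unstranded kit and one of 83 with a stranded kit, and the animals of each were told apart here by expression. Medians of the total count were 10.9 M in batch 1 and 20.1 M in batch 2. Markers of hepatocytes took a median of 18.2% of counts in liver libraries (5.14 to 24.3%), markers of myocytes 17.7% in muscle (8.77 to 22.1%) and markers of adipocytes 1.12% in adipose tissue (0.107 to 2.45%). By 1 of 2 signs, low own markers or markers of another of the 3 tissues, a library was in doubt for 6 animals of the liver set, 3 of the muscle set and 9 of the adipose set. Without them the same members passed the diet test in each tissue (6, 3 and 3).

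REL, which encodes the lymphoid factor c-Rel, was listed at 0 in 40 of 95 LCLF and 33 of 87 HCHF liver libraries, 52 of 96 and 58 of 98 muscle libraries, and 21 of 99 and 14 of 95 adipose libraries. Its highest count in any library was 13, and its median was between 0 and 0.143 CPM (counts per mega-count of the library). REL was therefore not compared further. The REL row overlaps a small nuclear RNA gene (LOC116270475) in the RefSeq annotation and the NFKB1 row overlaps a protein-coding gene (LOC110743305), and how shared reads were counted is not given in the sources used here.

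In liver, 6 of the 8 tested members were higher on HCHF and 0 were lower, where 22.3% of all 14919 genes tested rose and 27.1% fell by the quasi-likelihood test of edgeR, in which each animal was a block. The median log2 change was 0.256 over the members and -0.03 over all genes, and the estimates of all 8 members were above 0. The rise was led by BIRC3, RELB, NFKBIE and TNFAIP3, with folds between 1.30 and 1.50. NFKB1 and NFKB2 rose by less, and RELA and NFKBIA did not pass the test. In bulk tissue, fewer cells of a type and less RNA per cell cannot be told apart, and this holds for each change given here.

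**Figure D1:**
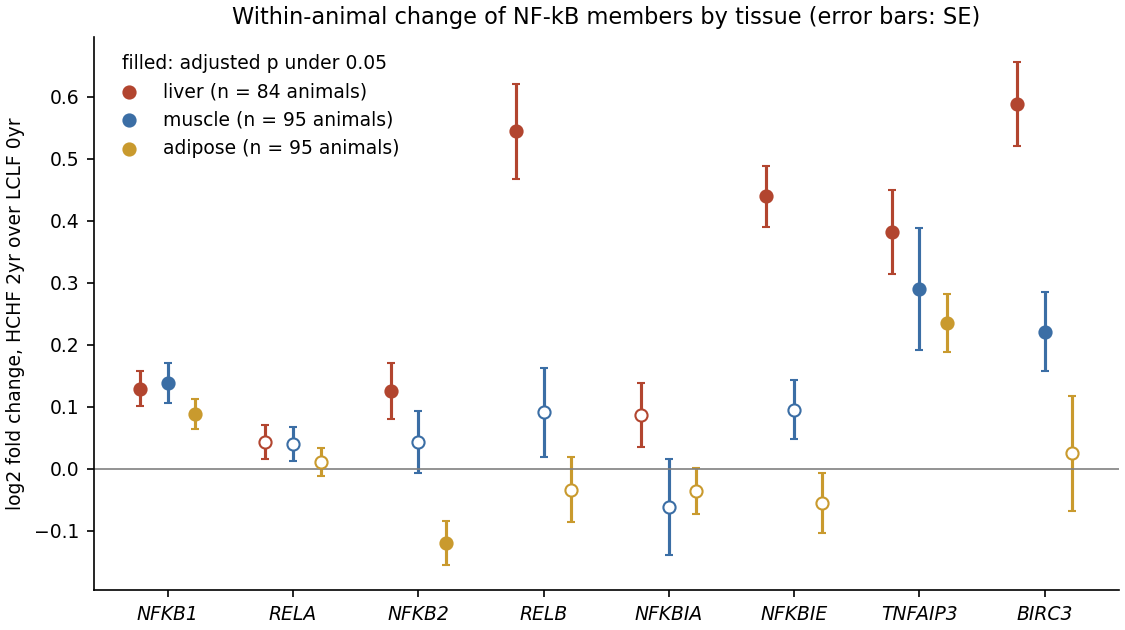
Log2 fold change of each tested member, HCHF at 2yr over LCLF at 0yr, in liver (n = 84 animals), muscle (n = 95) and adipose tissue (n = 95). Points are edgeR estimates, bars are standard errors and filled points passed an adjusted p of 0.05: the liver points of RELB, NFKBIE and BIRC3 stand above those of the other tissues, and the adipose point of NFKB2 lies below 0.

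Among the factors, RELB, the partner of processed NFKB2, had the largest change in liver. Its TMM-scaled CPM ran from 1.01 to 8.76 with a median of 3.20 on LCLF, and from 1.48 to 12.3 with a median of 4.60 on HCHF. The ranges overlapped widely, but RELB was higher at the second time in 70 of 84 animals. The log2 fold change was 0.54 ± 0.08 (SE, n = 84), with a Benjamini-Hochberg adjusted p of 3.81e-09 by edgeR. NFKB1, which encodes the precursor of the canonical DNA-binding subunit, had medians of 18.6 CPM on LCLF (10.7 to 26.0) and 20.7 CPM on HCHF (11.7 to 27.7). It was higher in 57 of 84 animals, by 0.13 ± 0.03 on the log2 scale (edgeR adjusted p = 9.80e-05). NFKB2 went from a median of 35.2 CPM (17.0 to 72.8) to 36.8 CPM (18.2 to 83.2) and was higher in 52 of 84 animals. Its log2 change of 0.12 ± 0.05 passed the test (edgeR adjusted p = 0.0166), but not in batch 2 alone (0.09 ± 0.05, limma-voom adjusted p = 0.129) or without the animal as a block (0.14 ± 0.06, edgeR adjusted p = 0.0624). RELA, the main transactivating subunit of the canonical dimer, had medians of 39.3 and 40.4 CPM and a log2 change of 0.04 ± 0.03 (edgeR adjusted p = 0.179).

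Of the inhibitors and feedback genes, BIRC3 changed most in liver. BIRC3 encodes a ubiquitin ligase that restrains MAP3K14 and relays TNF receptor signals. Its level ran from 3.77 to 39.4 CPM with a median of 10.1 on LCLF, and from 4.26 to 44.4 CPM with a median of 15.6 on HCHF. The groups overlapped over most of their range, and 70 of 84 animals were higher on HCHF. The log2 change was 0.59 ± 0.07 (edgeR adjusted p = 5.00e-12). NFKBIE, a cytoplasmic inhibitor that binds dimers containing RELA or REL, had a median of 4.61 CPM (2.25 to 9.36) on LCLF and 6.06 CPM (3.82 to 12.9) on HCHF. It was higher in 68 of 84 animals, with a log2 change of 0.44 ± 0.05 (edgeR adjusted p = 1.73e-12). TNFAIP3, a ubiquitin-editing enzyme that ends TNF receptor signalling, went from 8.07 CPM (3.43 to 25.8) to 10.8 CPM (4.02 to 31.1). It rose in 63 of 84 animals, by 0.38 ± 0.07 on the log2 scale (edgeR adjusted p = 1.61e-06). NFKBIA, the classical inhibitor that is resynthesised after each activation, had medians of 142 CPM (70.5 to 266) and 150 CPM (87.3 to 259). NFKBIA was higher in 49 of 84 animals, and its log2 change of 0.09 ± 0.05 did not pass (edgeR adjusted p = 0.162).

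Within batch 1 (n = 13 animals), 4 members passed by limma-voom. Their log2 changes were 0.75 for RELB, 0.45 for NFKBIE, 0.32 for NFKB2 (adjusted p = 0.0359) and 0.24 for NFKB1 (adjusted p = 0.0427). In that batch BIRC3 (0.55, adjusted p = 0.0589) and TNFAIP3 (0.28, adjusted p = 0.301) did not pass. Within batch 2 (n = 71) the changes of RELB, BIRC3, NFKBIE and TNFAIP3 were 0.49, 0.58, 0.43 and 0.39, and each passed by limma-voom. NFKB1 passed there too (0.11, adjusted p = 0.00246), while NFKB2 did not (0.09, adjusted p = 0.129).

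**Figure D2:**
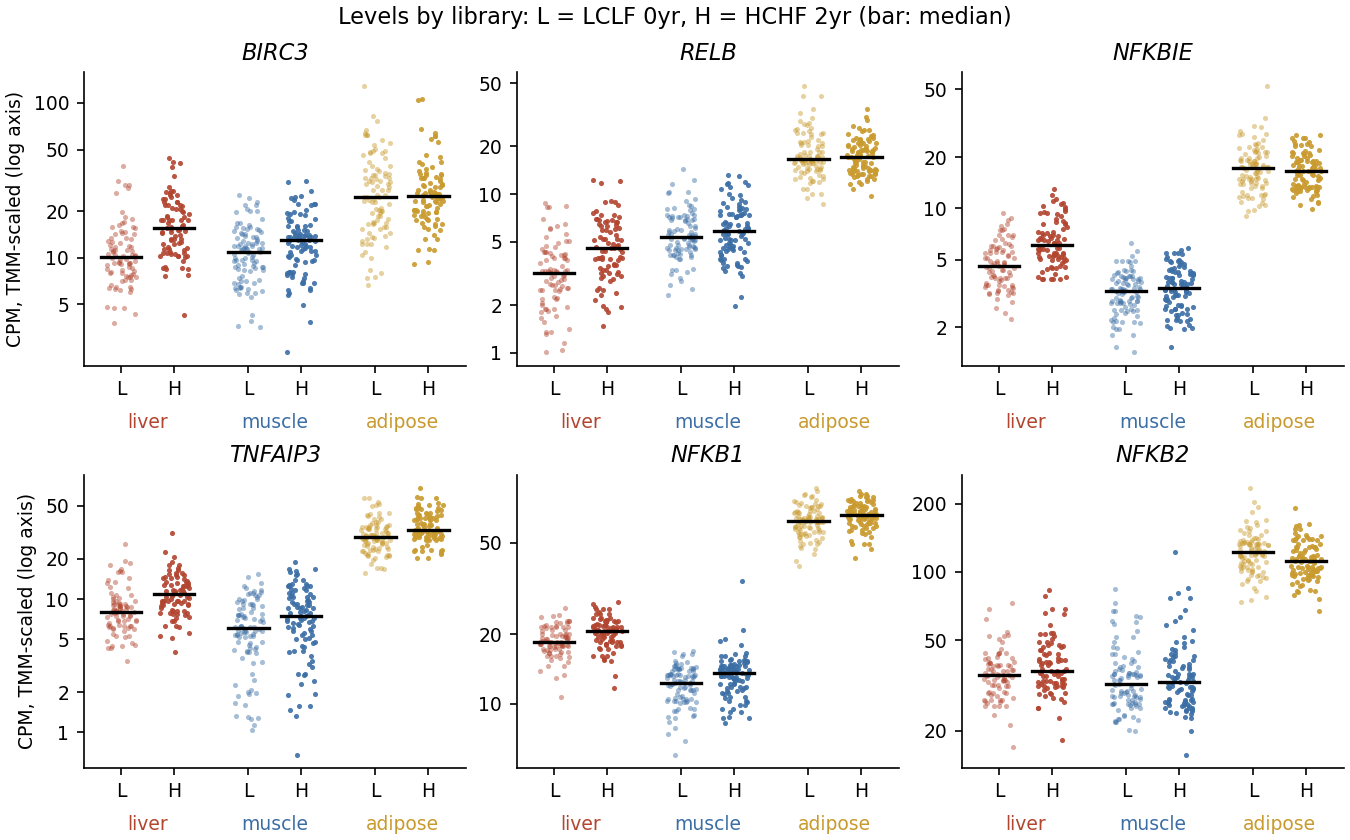
Level of 6 members in each library of the animals with both times, as TMM-scaled CPM on a log axis, for LCLF (L) and HCHF (H). Each point is a library, bars are medians and libraries were scaled within their tissue, so the panels show diets within a tissue and not levels between tissues. The liver medians of BIRC3 move from 10.1 to 15.6 CPM, while the adipose medians stay at 24.8 and 24.9 CPM.

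In muscle, 3 of 8 members were higher on HCHF and 0 were lower, where 6.7% of the 13621 genes tested rose and 7.91% fell. The median log2 change was 0.093 over the members and 0.00119 over all genes, and only NFKBIA had an estimate below 0, at an unadjusted edgeR p of 0.428. TNFAIP3 went from a median of 6.07 CPM (1.04 to 15.4) to 7.51 CPM (0.682 to 19.1) and rose in 60 of 95 animals. Its log2 change was 0.29 ± 0.10 (edgeR adjusted p = 0.0356). BIRC3 went from 10.9 CPM (3.55 to 25.3) to 13.0 CPM (2.45 to 31.3), was higher in 62 of 95 animals and changed by 0.22 ± 0.06 (edgeR adjusted p = 0.0128). NFKB1 went from 12.3 CPM (6.01 to 17.0) to 13.5 CPM (8.26 to 34.04), was higher in 66 of 95 animals and changed by 0.14 ± 0.03 (edgeR adjusted p = 0.00215). The LCLF and HCHF ranges overlapped for each of these 3 genes, though the highest HCHF library lay above the highest LCLF library in each. Without the animal as a block only NFKB1 passed (edgeR adjusted p = 0.0307), while BIRC3 (0.119) and TNFAIP3 (0.136) did not. In batch 1 alone (n = 16) 0 members passed by limma-voom, although the log2 changes of TNFAIP3, BIRC3 and NFKB1 were 0.37, 0.34 and 0.22, and TNFAIP3 reached an unadjusted p of 0.0413. In batch 2 alone (n = 79) they were 0.30, 0.21 and 0.13, and TNFAIP3 missed the threshold (limma-voom adjusted p = 0.0536). NFKBIE (0.10 ± 0.05), RELB (0.09 ± 0.07), NFKB2 (0.04 ± 0.05), RELA (0.04 ± 0.03) and NFKBIA (-0.06 ± 0.08) had adjusted p-values of at least 0.17 by edgeR.

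In adipose tissue, 2 of 8 members were higher and 1 was lower, where 18.7% of the 16827 genes tested rose and 19.9% fell. The median log2 change was -0.0116 over the members and -0.00481 over all genes. TNFAIP3 rose here as well, from a median of 29.0 CPM (15.6 to 57.6) to 33.3 CPM (20.2 to 68.4), in 62 of 95 animals. Its log2 change was 0.24 ± 0.05 (edgeR adjusted p = 3.62e-05). NFKB1 went from 62.2 CPM (39.8 to 86.9) to 66.3 CPM (43.1 to 84.0), was higher in 63 of 95 animals and changed by 0.09 ± 0.02 (edgeR adjusted p = 0.00245). NFKB2 went the other way, from 123 CPM (73.9 to 235) to 111.7 CPM (67.3 to 191.8), and was higher in only 38 of 95 animals. NFKB2 changed by -0.12 ± 0.04 on the log2 scale (edgeR adjusted p = 0.00428). The ranges of both diets overlapped for each of these genes. In batch 1 alone (n = 16) the log2 changes of TNFAIP3, NFKB1 and NFKB2 were 0.37, 0.06 and -0.12 and none passed by limma-voom, with an unadjusted p of 0.0151 for TNFAIP3. In batch 2 alone (n = 79) they were 0.21, 0.09 and -0.12 and passed.

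BIRC3 in adipose tissue had the same median at both times, 24.8 CPM on LCLF (6.64 to 130) and 24.9 CPM on HCHF (9.15 to 106), and had the widest spread between animals of the 8 members there. Its within-animal log2 change ran from -2.27 to 2.17, with an SD of 0.898, against an SD of 0.622 in liver and 0.629 in muscle. The mean change of 0.03 ± 0.09 did not pass (edgeR adjusted p = 0.859), and its sign depended on the method. RELB (-0.03 ± 0.05), NFKBIE (-0.06 ± 0.05), NFKBIA (-0.04 ± 0.04) and RELA (0.01 ± 0.02) did not pass either, with adjusted p-values of at least 0.378 by edgeR.

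The diet changes of the tissues were then compared within animals that had all 4 libraries of a pair of tissues, by limma on the difference of the log2 changes. Between liver and muscle (n = 80), 3 of 8 members differed, where 33.1% of all genes tested did. RELB rose by 0.48 ± 0.11 more in liver (limma adjusted p = 4.31e-04), BIRC3 by 0.39 ± 0.09 (4.86e-04) and NFKBIE by 0.32 ± 0.06 (3.92e-05). These 3 differences were positive in 55, 58 and 58 of 80 animals. Between liver and adipose tissue (n = 82), 4 of 8 members differed, where 37.7% of all genes did. With so few members, neither count stands apart from the share over all genes. The changes in liver exceeded those in adipose tissue by 0.57 ± 0.09 for RELB (limma adjusted p = 7.15e-07), 0.57 ± 0.12 for BIRC3 (5.11e-05), 0.48 ± 0.08 for NFKBIE (4.90e-07) and 0.25 ± 0.06 for NFKB2 (2.25e-04), in 63, 60, 59 and 56 of 82 animals. Between adipose tissue and muscle (n = 91), 0 of 8 members passed by limma, where 12.8% of all genes did, and 3 (NFKB2, NFKBIE and BIRC3) had an unadjusted p under 0.05. TNFAIP3 and NFKB1, higher on HCHF in every tissue, had no difference past the threshold for any pair of tissues. For TNFAIP3 the difference between liver and adipose tissue was 0.16 ± 0.08 (limma adjusted p = 0.114).

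Markers of immune cells and of other cells, red blood cells among them, moved with the diet in the same libraries. In liver, 13 of 14 macrophage markers, 11 of 11 T and NK cell markers, 4 of 4 neutrophil markers and 10 of 10 endothelial markers were higher on HCHF. The 7 of 7 fibroblast markers and 2 of 2 erythroid markers tested were higher too, and 7 of 9 hepatocyte markers were lower. Of all genes tested in liver, 22.3% rose and 27.1% fell. The macrophage markers together took 0.0258 to 0.146% of counts on LCLF and 0.053 to 0.207% on HCHF in liver. Each of the 14 had counts in at least 180 of 182 liver libraries. A macrophage score, which averages the markers' log2 CPM, rose by 1.17 ± 0.08 (SE, n = 84) and was higher in 77 of 84 animals. In muscle 6 of 10 macrophage markers were higher, with 6.64e-04 to 0.00937% of counts on LCLF and 6.26e-04 to 0.0254% on HCHF, and in adipose tissue 13 of 14 were higher, with 0.0108 to 0.35% and 0.0299 to 0.342% of counts. In adipose tissue 5 of 6 mesothelium markers, 6 of 7 fibroblast markers, 3 of 3 erythroid markers and 4 of 4 neutrophil markers were higher too. There 5 of 10 endothelial markers were lower, where 18.7% of all genes rose and 19.9% fell. The 2 of 11 T and NK cell markers that rose in adipose tissue lie near that share, and their score changed by 0.12 ± 0.08 (SE, n = 95). An erythroid score rose by 0.93 ± 0.17 in adipose tissue and by 1.09 ± 0.15 in liver. Of the macrophage markers listed, ADGRE1 had counts in the fewest muscle libraries, 38 of 194, while CD68, CD14 and CSF1R had counts in 194 of 194. In muscle 5 of 7 T and NK cell markers and 3 of 7 fibroblast markers were higher too, while 7 of 10 endothelial markers and 4 of 8 myocyte markers were lower. Of all genes tested in muscle, 6.7% rose and 7.91% fell. Endothelial markers took 0.00765 to 0.0772% of muscle counts on LCLF and 0.00811 to 0.0736% on HCHF, and myocyte markers 13.6 to 22.1% and 8.77 to 22.1%.

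Across animals, no relation of the liver changes of BIRC3 and RELB with the macrophage change was detected. The correlation of within-animal changes with the macrophage score was r = 0.03 for BIRC3 (rho = -0.01, permutation p = 0.797 and 0.95) and r = 0.03 for RELB (rho = 0.07, permutation p = 0.756 and 0.551; n = 84). The values for BIRC3 and RELB were 0.32 and 0.01 in batch 1, -0.01 and 0.05 in batch 2, and 0.04 and 0.05 without the 2 animals farthest from the median score. Over the 8 members r with this score lay between -0.18 and 0.23 in liver and 0 of 8 passed, with 1 (NFKBIE, r = 0.23) at an unadjusted permutation p under 0.05. When the macrophage score change was a covariate, the change at a score change of 0 was 0.56 ± 0.12 for BIRC3 (limma adjusted p = 0.012) and 0.50 ± 0.14 for RELB (0.0462). The other 4 liver calls were lost in that fit, in which 156 of 14919 genes passed, with 0.28 ± 0.09 for NFKBIE (limma adjusted p = 0.0915), 0.19 ± 0.12 for TNFAIP3 (0.475), 0.24 ± 0.08 for NFKB2 (0.127) and 0.10 ± 0.05 for NFKB1 (0.338). The estimates of NFKBIE and TNFAIP3 were smaller in that fit than in the edgeR test, that of NFKB2 was larger, and that of NFKB1 had moved by less than its standard error. With 77 of 84 animals above 0, that fit reads the change at the edge of the observed scores. A fit with 5 scores used macrophage, T and NK cell, neutrophil, endothelial and erythroid markers, and 36 of 14919 genes passed. BIRC3 was the only member to pass there (0.54 ± 0.13, limma adjusted p = 0.0454), while RELB did not (0.53 ± 0.14, 0.0868). The neutrophil score rose in 78 of 84 animals, so the fit with 5 scores reads an edge too.

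Other scores did covary with members in liver. NFKBIE followed the T and NK cell score (r = 0.46, rho = 0.43, permutation p = 3e-05 for each, adjusted p = 2.23e-04 and 2.82e-04), with 0.78 in batch 1, 0.44 in batch 2 and 0.39 without the 2 farthest animals. NFKBIE also went against the hepatocyte score (r = -0.32, rho = -0.32, adjusted permutation p = 0.0113 and 0.0135), but r was 0.51 in batch 1 and -0.40 in batch 2. NFKBIA and NFKB2 followed a score of immediate early genes such as FOS, JUN and EGR1, which respond within minutes to stress and handling of tissue. The values were r = 0.56 for NFKBIA (rho = 0.55, adjusted permutation p = 9.82e-05 and 1.20e-04; 0.75 in batch 1, 0.50 in batch 2, 0.51 without the 2 farthest animals). For NFKB2 they were r = 0.45 (rho = 0.41, adjusted permutation p = 2.23e-04 and 8.19e-04; 0.58, 0.45 and 0.42). In all, 10 of 72 relations of members with scores passed in liver, of 216 tested over the 3 tissues. The share of all genes that would pass with these scores is not given here, for any tissue. The part of these cells and genes in the liver changes was not tested beyond these values.

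In adipose tissue the picture of the scores was broader, with 50 of 80 relations past the threshold. The change of BIRC3 followed the T and NK cell score (r = 0.80, rho = 0.77, permutation p = 1e-05, the smallest the test can give, adjusted p = 9.82e-05 and 1.20e-04), with 0.87 in batch 1, 0.78 in batch 2 and 0.79 without the 2 farthest animals. BIRC3 also followed the macrophage score (r = 0.71, rho = 0.69, same p-values; 0.71 in both batches and 0.70 without the 2 farthest animals) and went against the adipocyte score (r = -0.66, rho = -0.69; -0.62, -0.67 and -0.63). NFKBIE (r = 0.60, rho = 0.52) and RELB (r = 0.56, rho = 0.47) followed the macrophage score too, at adjusted permutation p-values of 9.82e-05 and 1.20e-04. Both held in batch 1 (0.57 and 0.63) and batch 2 (0.61 and 0.55), and without the 2 farthest animals r was 0.60 and 0.54. All 8 members passed with the T and NK cell score, 7 with the neutrophil score and 6 with the macrophage score, where RELA and NFKBIA did not. The immediate early score passed with 7 members as well, NFKB2 (r = 0.49) and RELB (r = 0.46) among them. The B cell score passed with 6 members and the mesothelium score with 5. The endothelial and adipocyte scores each had 5 negative relations past the threshold. Whether the correlations of adipose tissue and liver differ was not tested.

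**Figure D3:**
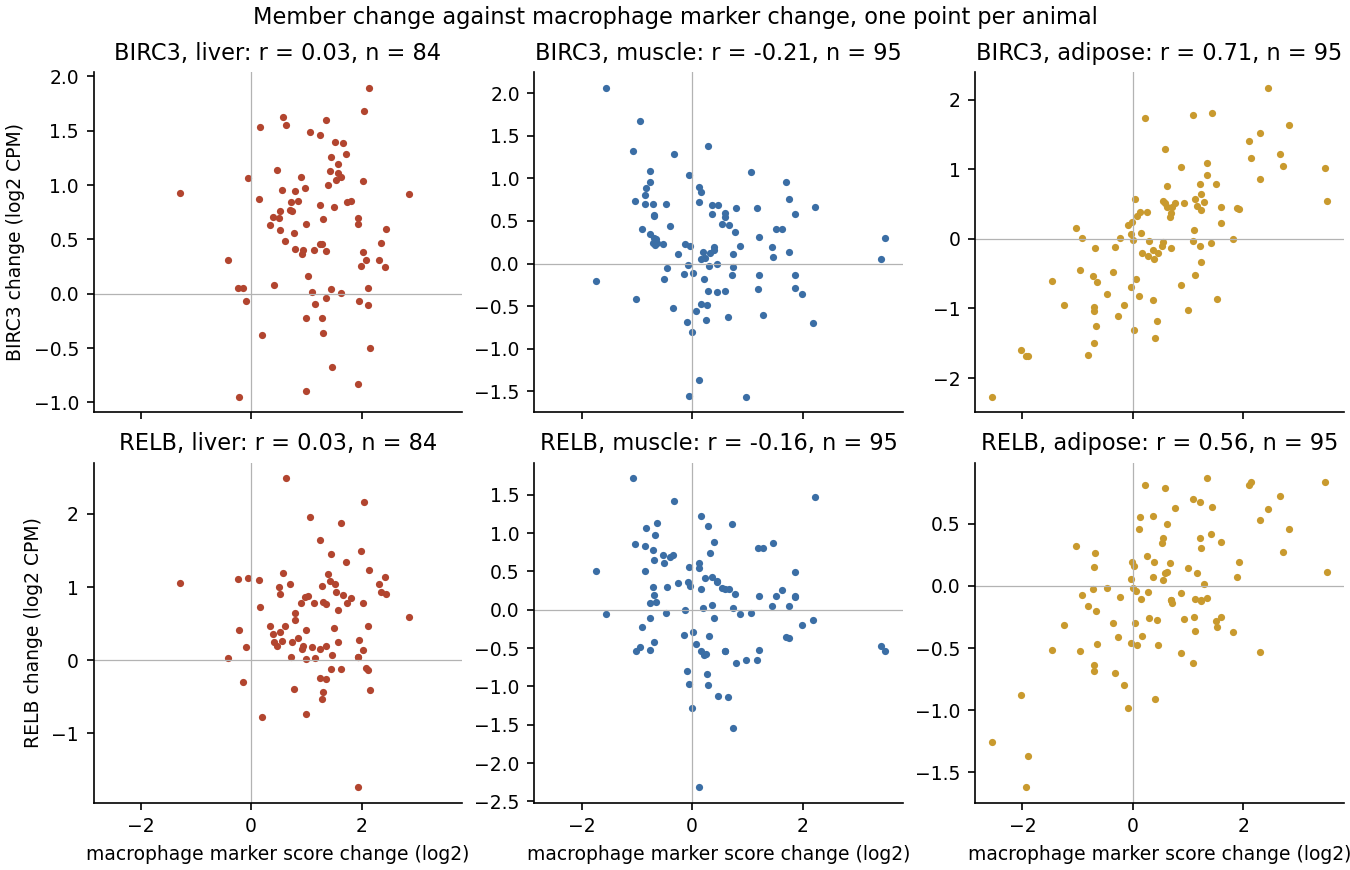
Within-animal log2 change of BIRC3 (top) and RELB (bottom) against the change of the macrophage marker score (log2), one point per animal, in liver, muscle and adipose tissue. In adipose tissue points rise together (r = 0.71 and 0.56), while in liver most points lie above 0 on both axes without a slope (r = 0.03 for each).

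In adipose tissue the covariate changed the calls in another way. At a macrophage score change of 0, BIRC3 (-0.27 ± 0.07, limma adjusted p = 0.00215), NFKBIE (-0.19 ± 0.04, 3.51e-04) and RELB (-0.17 ± 0.05, 0.00418) were lower on HCHF, together with NFKB2 (-0.20 ± 0.03, 6.20e-06). TNFAIP3 was higher there (0.15 ± 0.05, limma adjusted p = 0.0111), and NFKB1 no longer passed (0.03 ± 0.02, 0.352). Of all 16827 genes tested, 2600 were higher and 2606 were lower in that fit. With the same 5 scores as in liver, the adipocyte score not among them, only NFKB2 passed in adipose tissue (-0.14 ± 0.04, limma adjusted p = 0.00519). In that fit 1475 of 16827 genes were higher and 1272 were lower. The part of these cells in the adipose values was not tested beyond these fits.

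Muscle gave 13 of 64 relations past the threshold, against 50 of 80 in adipose tissue and 10 of 72 in liver. BIRC3 went against the neutrophil score (r = -0.36, rho = -0.39, adjusted permutation p = 0.0017 and 8.19e-04; -0.60 in batch 1, -0.26 in batch 2, -0.37 without the 2 farthest animals). TNFAIP3 followed the fibroblast score (r = 0.36, rho = 0.33, adjusted permutation p = 0.00171 and 0.00701; 0.07, 0.41 and 0.38). BIRC3 went against the endothelial score by r (r = -0.37, adjusted permutation p = 0.0013) but did not pass by rank (rho = -0.23, 0.0822), with r of -0.49 in batch 1, -0.32 in batch 2 and -0.22 without the 2 farthest animals. NFKB1 went against the myocyte score (r = -0.34, rho = -0.27, adjusted permutation p = 0.00409 and 0.0331; -0.39, -0.33 and -0.25). With the macrophage score as a covariate, 2833 of 13621 genes passed in muscle by limma. BIRC3 (0.26 ± 0.07, limma adjusted p = 0.00376) and NFKB1 (0.12 ± 0.03, 0.00714) were among them, while TNFAIP3 was not (0.27 ± 0.10, 0.0518). With the same 5 scores as in liver, which leave out fibroblasts and myocytes, 0 of 8 members passed in muscle by limma. NFKB1 and NFKBIE had an unadjusted p under 0.05 in that fit. The estimates of the 3 called members were then 0.03 ± 0.11 for TNFAIP3 (limma adjusted p = 0.916), 0.06 ± 0.07 for BIRC3 (0.715) and 0.09 ± 0.04 for NFKB1 (0.159), against 0.29, 0.22 and 0.14 by edgeR. The part of these cells in the muscle values was not tested beyond these fits.

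The members also covaried with each other, and whether their correlations differ between tissues was not tested. In adipose tissue 24 of 28 pairs had a positive correlation of changes past the threshold, with a median r of 0.449 over all pairs. In liver 15 of 28 were positive and passed, with a median of 0.292, and in muscle 7 were positive and 3 negative, with a median of -0.0326. A member's median r with all other genes tested lay near 0 in each tissue, from -0.0303 (BIRC3 in adipose tissue) to 0.017 (NFKBIE in liver). That median does not show how often a pair passes, and the share of all gene pairs past the threshold is not given here. In adipose tissue, r was over 0.5 for 5.49% of all genes with NFKB2, 6.09% with RELB, 7.32% with NFKBIE and 8.2% with BIRC3. The changes of 2 genes come from the same libraries and share their depth and scaling.

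The closest pairs in adipose tissue joined the noncanonical factors and NFKBIE. RELB and NFKBIE had r = 0.86 (rho = 0.81), NFKB2 and NFKBIE r = 0.83 (rho = 0.83), and NFKB2 and RELB r = 0.81 (rho = 0.77), each at an adjusted permutation p of 4.20e-05 for r and 5.25e-05 for rho. In batch 1 these were 0.85, 0.72 and 0.82, in batch 2 0.86, 0.86 and 0.81, and without the 2 farthest animals 0.83, 0.81 and 0.79. BIRC3 joined them, with r = 0.73 to NFKBIE, 0.70 to NFKB2 and 0.67 to RELB. RELB and NFKB2 were paired in liver as well (r = 0.62, rho = 0.70, the same adjusted p-values; 0.37 in batch 1, 0.65 in batch 2, 0.62 without the 2 farthest animals). The closest liver pair was RELB with BIRC3 (r = 0.68, rho = 0.65, the same adjusted p-values; 0.49, 0.71 and 0.64). In muscle RELB and NFKB2 were again the closest pair (r = 0.46, rho = 0.38, adjusted permutation p = 4.20e-05 and 9.80e-04; 0.71, 0.32 and 0.44). The pairs of RELB with NFKB2, NFKBIE and BIRC3 passed in each of the 3 tissues.

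**Figure D4:**
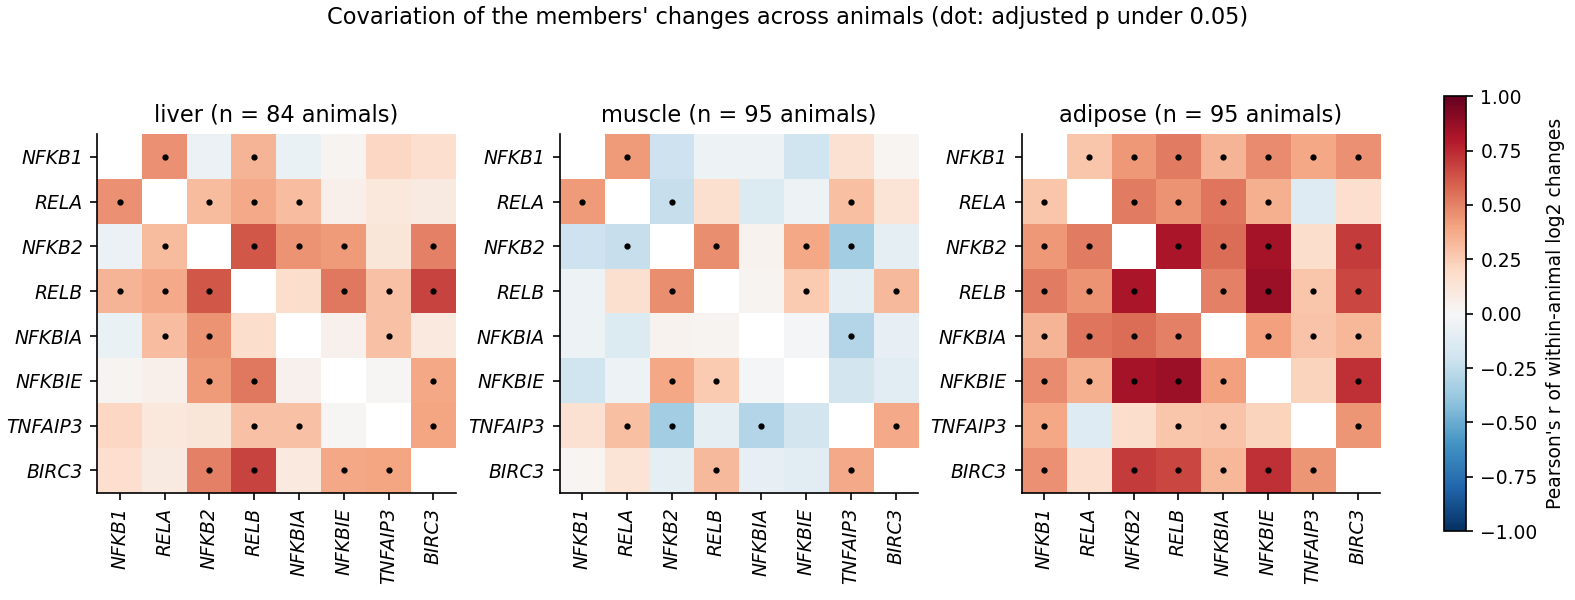
Pearson's r of within-animal log2 changes for each pair of members across animals, in liver (n = 84), muscle (n = 95) and adipose tissue (n = 95). Colour gives r from -1 to 1 and dots mark pairs with an adjusted permutation p under 0.05: the block of NFKB2, RELB, NFKBIE and BIRC3 is dark in adipose tissue (r of 0.67 to 0.86) and paler in muscle (r of at most 0.46).

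Negative pairs that passed occurred only in muscle among the 84 pairs tested. TNFAIP3 went against NFKB2 (r = -0.35, rho = -0.36, adjusted permutation p = 0.00138 and 0.00136) and NFKBIA (r = -0.29, rho = -0.24, 0.0082 and 0.0379). The first was 0.31 in batch 1 and -0.53 in batch 2, and the second was -0.26 and -0.30. Without the 2 farthest animals they were -0.33 and -0.34. The third, NFKB2 with RELA (r = -0.23), was not seen by rank (rho = 0.05, adjusted permutation p = 0.686). The canonical pair NFKB1 and RELA had r = 0.46 in liver (rho = 0.46), 0.42 in muscle (rho = 0.18, adjusted permutation p = 0.142) and 0.27 in adipose tissue (rho = 0.22, 0.0639), and the liver value passed by both measures.

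Changes of a member in 2 tissues of the same animal mostly had no correlation past the threshold. Of 24 relations of a member between 2 tissues, 1 passed, NFKBIA between adipose tissue and muscle (n = 91, r = 0.33, rho = 0.33, adjusted permutation p = 0.0317 and 0.0475). It was 0.36 in batch 1, 0.33 in batch 2 and 0.27 without the 2 farthest animals. NFKBIA had r = 0.28 between liver and muscle (n = 80) and 0.27 between liver and adipose tissue (n = 82), neither past the threshold (adjusted permutation p = 0.118 for each). BIRC3 and RELB, which rose in liver, had r = 0.02 and 0.01 between liver and adipose tissue.

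Levels kept some of each animal's rank over the 2 years. Log2 levels at both times were centred within each library batch. Their correlation passed for 7 of 8 members in liver and in muscle, and for 8 of 8 in adipose tissue. It was highest for RELA in muscle (r = 0.54, rho = 0.54), BIRC3 in liver (r = 0.53, rho = 0.49) and BIRC3 in muscle (r = 0.48, rho = 0.53), each at an adjusted permutation p of 6e-05 for r and 8e-05 for rho. In batch 1 these 3 were 0.23, 0.65 and 0.48, in batch 2 0.58, 0.51 and 0.50, and without the 2 farthest animals 0.55, 0.49 and 0.54. The 2 that did not pass were RELA in liver (r = 0.15, adjusted permutation p = 0.167) and RELB in muscle (r = 0.10, 0.339). NFKB2 in muscle passed (r = 0.45), but r was -0.09 in batch 1 and 0.56 in batch 2. The share of all genes that would pass is not given here, so these counts may not be particular to the members.

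At 0yr, the members differed between tissues, as 92.3% of all genes did between liver and muscle, 92.3% between liver and adipose tissue and 93.4% between adipose tissue and muscle. These counts were 8, 7 and 7 of 8 members. RELB was lowest in liver on each scaling tried: its log2 level was 1.01 ± 0.09 lower there than in muscle (n = 92) and 1.23 ± 0.08 lower than in adipose tissue (n = 95), with limma differences of -1.01 and -1.23. NFKBIA was higher in liver than in muscle by 2.05 ± 0.07, in 92 of 92 animals. NFKB1, NFKBIE and TNFAIP3 were ordered from adipose tissue to liver to muscle, with NFKB1 0.46 ± 0.03 lower in liver than in adipose tissue (difference -0.46) and 0.48 ± 0.04 higher than in muscle. The order of NFKB2 and BIRC3 rested on the scaling. RELA and NFKBIA kept their order on each scaling tried, but not each difference passed. RELA between liver and muscle was -0.20 ± 0.03 by TMM and -0.05 ± 0.03 (limma adjusted p = 0.169) in CPM with no scaling factor. TMM factors had a median of 1.9 in adipose tissue, 0.753 in liver and 0.672 in muscle, and leaving them out moved the median difference of all genes between liver and adipose tissue from -0.089 to -1.33. NFKBIA then differed between liver and adipose tissue by 0.01 ± 0.05 (limma adjusted p = 0.818) where TMM gave 1.32 ± 0.05. BIRC3, which did not pass between adipose tissue and muscle by TMM (-0.18 ± 0.11, limma adjusted p = 0.11), was 1.28 ± 0.11 higher in adipose tissue without the factors.

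Other genes of the pathway were read from 4 lists set by role. Among 18 target genes tested in liver, 12 rose and 0 fell, with a median log2 change of 0.46, where 22.3% of all genes tested rose and 27.1% fell with a median of -0.03. BCL2A1, an NF-kB-driven survival gene of leukocytes, rose by 1.19 ± 0.10, PLAU, the urokinase gene, by 1.14 ± 0.12, the chemokine gene CCL5 by 0.75 ± 0.09 and the adhesion gene ICAM1 by 0.74 ± 0.07 (edgeR adjusted p of at most 1.93e-11 for each). Of 8 ligands and receptors in liver, 5 rose and 0 fell. Among them were the ligand gene IL1B (0.93 ± 0.14) and the receptor genes TLR4 (0.85 ± 0.08) and TNFRSF1B (0.66 ± 0.06), which encodes TNF receptor type 2. Mean levels were low for IL1B (0.455 CPM on LCLF, 0.837 on HCHF) and BCL2A1 (0.887 and 2.005). Of 19 kinases and adaptors, 2 rose, MAP3K8 (0.54 ± 0.07) and TRAF5 (0.15 ± 0.06), and 4 fell, MYD88 (-0.15), TRAF2 (-0.13), CHUK (-0.10) and RIPK1 (-0.09). Neither count of kinases and adaptors exceeded the share over all genes. Of 11 other inhibitors, NFKBID (0.31), BCL3 (0.24) and CYLD (0.11) rose, and NFKBIZ (-0.16), NFKBIB (-0.14), TNIP1 (-0.13) and OTULIN (-0.10) fell. NFKBID and BCL3 encode atypical nuclear inhibitors, and NFKBIB encodes a close relative of the NFKBIA product.

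In muscle 2 of 13 target genes rose, CCL5 (0.47 ± 0.13) and IER3 (0.40 ± 0.12), and 0 fell, where 6.7% of all genes rose and 7.91% fell. TLR4 (0.38 ± 0.13), IL1R1 (0.24 ± 0.09) and TNFRSF1B (0.14 ± 0.04) rose among 6 ligands and receptors, and TRAF3 (0.20), BIRC2 (0.14) and TRAF6 (0.11) among 19 kinases and adaptors, and 2 of 11 other inhibitors fell, PDLIM2 (-0.20) and IRAK3 (-0.14). BIRC2 is the close relative of BIRC3. Mean levels in muscle were low for CCL5 (0.866 CPM on LCLF, 1.26 on HCHF) and TLR4 (0.791 and 1.11). In adipose tissue, where 18.7% of all genes rose and 19.9% fell, 7 of 20 target genes rose, led by BCL2A1 (0.50 ± 0.13), PTGS2 (0.39 ± 0.12), CCL2 (0.34 ± 0.12) and IER3 (0.29 ± 0.09), and 2 fell, BCL2L1 (-0.20 ± 0.04) and CFLAR (-0.07 ± 0.03). Among 11 ligands and receptors 5 rose, led by TLR2 (0.54 ± 0.10) and TLR4 (0.37 ± 0.09), while CD40 (-0.14 ± 0.03), a receptor of the noncanonical branch, fell. NFKBID fell in adipose tissue (-0.27 ± 0.04, in all but 17 of 95 animals), against its rise in liver, NFKBIB fell (-0.16 ± 0.04) and PDLIM2 rose (0.19 ± 0.05) among 11 other inhibitors. The difference of NFKBID between the tissues was not tested. Of 19 kinases and adaptors 2 rose, TRAF5 (0.17) and TAB2 (0.10), and 4 fell, TRADD (-0.10), RIPK1 (-0.08), TRAF6 (-0.08) and TRAF2 (-0.06).

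**Figure D5:**
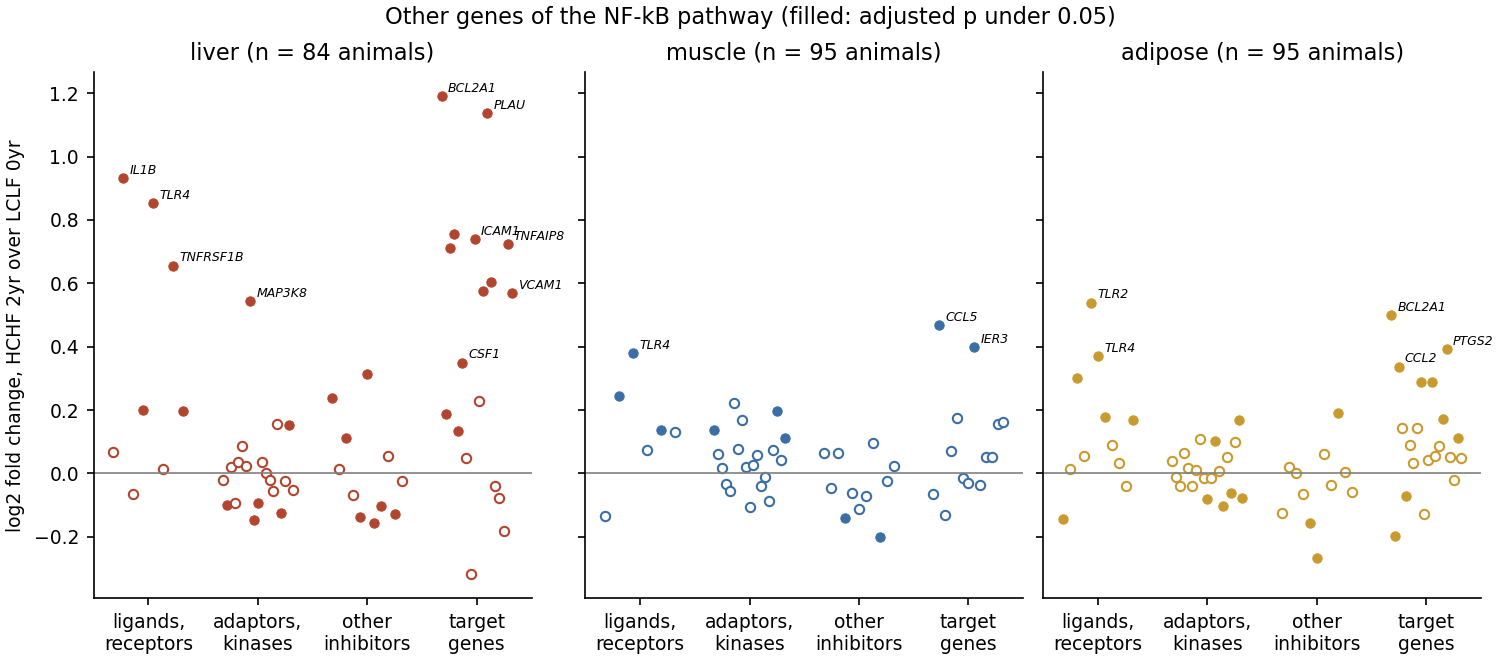
Log2 fold change, HCHF at 2yr over LCLF at 0yr, of the other pathway genes in 4 lists for each tissue, in alphabetical order within a list. Filled points passed an edgeR adjusted p of 0.05: in liver 12 of 18 targets lie above 0 and passed, led by BCL2A1 at 1.19, and among the kinases and adaptors MAP3K8 passed at 0.54.

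The genes whose changes were most like those of a member were taken over all genes tested with a mean of at least 1 CPM, as a description with no test. In liver these were IER3 (r = 0.64) and JUN (0.61) for NFKBIA, BCL3 (0.51) for BIRC3, RHBDF2 (0.66) for RELB, TMSB10 (0.65) for NFKBIE and CXCL10 (0.47) for TNFAIP3, over 84 animals. In adipose tissue they were MTA2 (0.79) and MAP3K14 (0.77), the noncanonical kinase gene, for NFKB2, IL4R (0.80) for RELB, EMP3 (0.82) for NFKBIE, SLAMF8 and LAT2 (0.84 each) for BIRC3, and GADD45B (0.66) for NFKBIA, over 95 animals. In muscle TOX4 (0.78) was most like RELA, ACAP3 (0.69) like NFKB2 and GADD45G (0.64) like NFKBIA. IER3 and GADD45B are on the list of targets and MAP3K14 on that of kinases. The number of genes with an r over 0.5 differed widely between members: 8.2% of all genes for BIRC3 and 7.32% for NFKBIE in adipose tissue, against 0.107% for TNFAIP3 there, and 7.56% for RELA in muscle.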

How the data were processed

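Frozen biopsies gave the sequenced RNA, in 2 library batches per the labels' protocols. STAR 2.7.7a, featureCounts and FastQC are the tools in the submitters' processing notes. For build, annotation and strand setting, the sources used here give nothing. The authors deposited raw counts per gene with no normalization for 588 libraries, and for the 570 that passed their quality control, used here. Symbols of 33824 genes match RefSeq Panubis1.0, used for names only, and sequences and coordinates were not used here. Libraries of a given tissue and time came from separate animals, and each animal gave up to 6 libraries. Batches were read from the first axis of expression (23.3% of variance, 16 animals against 83), since the labels do not assign animals.

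Diet changes were tested per tissue with edgeR 4.0.16 (TMM factors, filterByExpr with a minimum count of 10, quasi-likelihood with a common dispersion from 1000 genes, animal as block) in R 4.3.3, adjusted by Benjamini-Hochberg over all genes at 0.05. CPM given for a diet are scaled by TMM within a tissue. The block rests on the labels, which name the animal of each library. Differences between tissues and fits with score covariates used limma 3.58.1 on log2 CPM changes (prior count 2). Correlations across animals had two-sided permutation tests with 100000 resamples, adjusted over 84 pairs, 24 relations across tissues, 24 of repeatability and 216 with scores. Alternatives included RLE factors, DESeq2 1.42.0, limma-voom, other filters and batches alone. On simulated data (1500 genes, 200 changed) edgeR found 72% (liver), 74% (muscle) and 84% (adipose tissue) of log2 changes of 0.2, and 100% of changes of 0.5 in each, with false shares of 3.91, 3.33 and 4.66% of calls. Every simulated gene had the same dispersion and the same change in each animal. The members' own changes had SDs from 0.213 (RELA in adipose tissue) to 0.971 (TNFAIP3 in muscle), so these rates need not hold for them.

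The members, gene lists and tests were chosen with earlier results of these data known. The genes named are the 8 tested members, up to 4 genes per list and tissue with the largest changes past the threshold and, for each member, the 3 genes with the highest r of changes, of which some are printed. CHUK, RIPK1, CYLD, TNIP1 and OTULIN in liver, and CD40, BCL2L1, CFLAR, TRAF2 and TRAF6 in adipose tissue, were named after their values were seen.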

Additional observations from a re-analysis of the deposited data

Results flagged for a closer look

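The diet change of 4 members differed between tissues by limma's test of the difference itself, in 7 comparisons. Of 8 members tested, 3 differed between liver and muscle, where 33.1% of all genes did, and 4 between liver and adipose tissue, where 37.7% did. With so few members, neither count stands apart from the share over all genes. Liver exceeded muscle by 0.48 for RELB, 0.39 for BIRC3 and 0.32 for NFKBIE on the log2 scale. Liver exceeded adipose tissue by 0.57 for RELB, 0.57 for BIRC3, 0.48 for NFKBIE and 0.25 for NFKB2. The NFKB2 difference joins a rise in liver (0.12 ± 0.05) with a fall in adipose tissue (-0.12 ± 0.04), and the liver rise alone did not pass in batch 2. Macrophage scores rose in both tissues, by 1.17 ± 0.08 in liver and 0.54 ± 0.12 in adipose tissue, and their part in these differences was not tested.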

How the results depend on the processing

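Counts of calls were the most dependent values. With the macrophage score as a covariate (limma), 2 members were higher in liver, with 156 genes called against 7367 in the edgeR test. In adipose tissue 1 member was higher and 4 were lower, where 2600 of 16827 genes were higher and 2606 were lower. In muscle 2 members were higher, with 2833 genes called against 1989. With 5 scores, 1 member and 36 genes were called in liver, and 0 members and 428 genes in muscle. In adipose tissue 0 members were then higher and 1 was lower, with 2747 genes called against 6484. In batch 1 alone, the smaller group of animals, the genes called were 934 (liver), 16 (muscle) and 1 (adipose tissue), and 0 members in the last 2. Without the replicate block, that is with the animals unpaired, 1 member and 575 genes (edgeR) or 1 and 543 (DESeq2) were called in muscle, and 3698 or 3852 genes in adipose tissue. The block moved no other count of members by over 1.5 times. With no filter on low counts 13847 genes were called in liver and 10928 in adipose tissue. The called pairs in muscle rose from 10 to 16 in batch 2 alone, where 0 relations across tissues passed, and plain CPM gave 5 members between liver and muscle at 0yr.

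Some directions reversed, none of them a diet call of edgeR. BIRC3 in adipose tissue, 0.03 by edgeR, was -0.026 by limma-voom, -0.025 with no filter, -0.013 over all 588 libraries, -0.064 and -0.061 without the block by edgeR and DESeq2, -0.044 and -0.031 in batches 1 and 2, and -0.27 and -0.119 with 1 and 5 scores. RELA in adipose tissue was -0.025 in batch 1, -0.0002 over all libraries and -0.008 with the macrophage score. NFKBIA was -0.114 in liver over all libraries and 0.013 in muscle with 5 scores. In muscle NFKB2 was -0.005 with the macrophage score and NFKBIE -0.007 in batch 1. At 0yr, BIRC3 between adipose tissue and muscle was 1.276 in plain CPM, BIRC3 between liver and adipose tissue 0.012 with RLE factors, and NFKB2 between liver and muscle 0.036 in plain CPM. The correlation of RELA and NFKB2 in muscle was 0.052 by rank. With the liver macrophage score, r of RELA was 0.051 in batch 2 and 0.029 without the animals in doubt, and r of BIRC3 was -0.014 and -0.023. The causes were not tested. Leaving out the animals in doubt, limma without covariates and the plain CPM levels were chosen after seeing the data. REL, with at most 13 counts in any library, could not be tested, and the part of depth in its low counts was not tested.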
